A study of Mus musculus with 12 samples.

Results

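The C-type lectin receptor genes Clec2d, Clec4a2, Clec4a3, Clec4d, Clec4e, Clec4n, Clec5a, Clec7a, Clec10a and Clec12a were followed in alveolar macrophages after lung transplantation in mice. They were chosen by name, with earlier results of these data known, and all 10 were found among the 43430 genes measured. Alveolar macrophages are the resident phagocytes of the air spaces. There are 12 RNA-seq libraries of polyadenylated RNA, 4 each from naive lungs, from lungs at 2 h and from lungs at 24 h of reperfusion, the return of blood flow to a graft. All groups, the naive controls included, are labelled male, 14 weeks old and Cx3cr1gfp/+B6, a genotype with 1 Cx3cr1 allele replaced by GFP. The labels do not say whether donor or recipient carried it, nor explain the word Allo in the titles of the reperfusion libraries. The labels do not tell whether each library is a different animal, and the p-values therefore reflect variation among libraries that could be technical.

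C-type lectin receptors sit on myeloid cells and bind sugars, lipids and products of dead cells through a shared lectin fold. Activating members signal through an ITAM, carried in their own tail or by the adaptor FcRγ (Fcer1g) or DAP12 (Tyrobp), which recruits the kinase Syk and, through Card9, drives NF-κB and cytokine genes. Inhibitory members carry an ITIM that recruits phosphatases. Alveolar macrophages are known for dectin-1, encoded by Clec7a, through which they take up fungal particles.

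Of the 10 genes, 9 lie on chromosome 6 and Clec10a lies on chromosome 11. RefSeq promoters (GRCm38.p6, each from 250 bases before to 50 bases after a start site) were found for 8 of the 10 genes. The windows of 4 genes are shown. Clec4d and Clec4e are neighbours that were both higher at 2 h, Clec12a was lower at 2 h and higher at 24 h than in naive, and Clec2d had the largest fall. The Clec4d window lies at chr6:123261857-123262156 on the plus strand, Clec4e at chr6:123289822-123290121 on the minus strand, Clec12a at chr6:129349994-129350293 on the plus strand and Clec2d at chr6:129180365-129180664 on the plus strand. Capitals mark matches, on either strand, to the PU.1 motif GAGGAAG, the C/EBP motif TTGCNNAA and the AP-1 motif TGANTCA.
Clec4d: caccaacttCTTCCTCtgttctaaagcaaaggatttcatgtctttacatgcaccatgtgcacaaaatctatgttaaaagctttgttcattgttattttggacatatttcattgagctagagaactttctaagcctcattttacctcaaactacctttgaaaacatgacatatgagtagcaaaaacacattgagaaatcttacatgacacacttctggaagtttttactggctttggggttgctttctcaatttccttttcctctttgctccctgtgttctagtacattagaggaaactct
Clec4e: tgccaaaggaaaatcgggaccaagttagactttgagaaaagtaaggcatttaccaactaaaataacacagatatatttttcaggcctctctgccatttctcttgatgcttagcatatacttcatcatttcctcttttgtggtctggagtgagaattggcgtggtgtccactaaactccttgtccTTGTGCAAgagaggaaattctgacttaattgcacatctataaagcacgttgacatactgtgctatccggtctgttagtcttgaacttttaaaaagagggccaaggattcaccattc
Clec12a: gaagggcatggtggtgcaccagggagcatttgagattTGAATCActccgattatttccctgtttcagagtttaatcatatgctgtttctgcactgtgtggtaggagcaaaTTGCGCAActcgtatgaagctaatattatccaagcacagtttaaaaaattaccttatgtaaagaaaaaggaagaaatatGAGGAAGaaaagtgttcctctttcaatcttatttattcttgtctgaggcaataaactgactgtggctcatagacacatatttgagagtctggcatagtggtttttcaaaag
Clec2d: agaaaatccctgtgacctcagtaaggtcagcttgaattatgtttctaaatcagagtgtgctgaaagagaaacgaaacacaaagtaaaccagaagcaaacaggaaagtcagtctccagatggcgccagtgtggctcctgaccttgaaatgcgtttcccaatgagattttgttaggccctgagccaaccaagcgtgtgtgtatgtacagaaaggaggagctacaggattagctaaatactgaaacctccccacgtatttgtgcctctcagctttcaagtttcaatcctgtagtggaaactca
Clec4d held a PU.1 match, read on the reverse strand, at bases 10 to 16 of its window. Clec4e held a C/EBP match at bases 185 to 192. Clec12a held an AP-1 match at bases 38 to 44, a C/EBP match at bases 111 to 118 and a PU.1 match at bases 190 to 196. No searched motif was in the Clec2d window, and none of the matches shown overlapped. Clec5a, which is not shown, held 2 PU.1 matches. The κB consensus, searched as well, was in none of the 10 windows of these 8 genes (Clec4a3 and Clec7a have 2 each), and the STAT motif TTCNNNGAA was in that of Clec4a2 alone, at bases 209 to 217. Clec4a2 also held an AP-1 match at bases 282 to 288. The windows of Clec12a and Clec4a2 (chr6:123122440-123122739, plus strand) lie inside their genes. The annotated starts of these 2 genes, 129342691 and 123106428, are outside the windows. Among all 27025 promoter windows, PU.1 was in 13.5%, C/EBP in 10.8%, STAT in 8.47%, κB in 8.18% and AP-1 in 7.93%. A match describes letters and is not a bound site, and the absence of one says only that these letters are not in this window.

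Expression was given as RPKM, reads scaled to the length of the gene and to the library total. Library totals were 6112586 to 8796071 reads in naive, 7242824 to 10347265 at 2 h and 9129420 to 11997945 at 24 h, at which 3 reads of a gene of 1 kb come to 0.25 to 0.491 RPKM. These limits cover counting error only. Siglecf, Marco, Pparg and Car4, from a list of 24 alveolar macrophage markers, were detected in all 12 libraries, the lowest value being 16.8 RPKM (Siglecf at 24 h replicate 2). Their levels were not constant. At 24 h against naive Siglecf (log2 fold change −1.12) and Pparg (−0.30) were called lower, and Marco (2.06) and Car4 (1.09) higher.

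The genes did not move as one group. Of the 9 with enough expression to be tested, 3 were higher and 3 lower at 2 h than in naive, and 3 did not pass. Against naive, 2 were higher at 24 h, 3 lower and 4 did not pass. Against 2 h, 3 were higher at 24 h, 5 lower and 1 did not pass. A call is an adjusted p under 0.05 by limma over all tested genes. In bulk libraries fewer cells of a type and less RNA per cell cannot be told apart. Clec4d, Clec4e and Clec4n were higher at 2 h than in naive and lower at 24 h than at 2 h, Clec5a was higher and Clec7a lower at 24 h, Clec4a3 and Clec2d were lower at both times, Clec12a was lower at 2 h and higher at 24 h, and Clec4a2 passed in no comparison.

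Calls were common among all 11419 tested genes. At 2 h against naive 36.7% were called, 14.7% higher and 22% lower. The share was 45.9% at 24 h against naive, 25.3% higher and 20.6% lower, and 52.5% at 24 h against 2 h, 30.9% higher and 21.5% lower. The libraries of the compared groups did not overlap in 6 of the 9 genes at 2 h against naive, beside 34.5% of all genes. They did not overlap in 5 of the 9 at 24 h against naive, beside 47.9%, and in 7 of the 9 at 24 h against 2 h, beside 45.7%. Median-ratio scaling moved the splits of higher against lower, giving 2062 genes higher and 2043 lower at 2 h against naive, where the RPKM values gave 1675 and 2514. For 24 h against 2 h that scaling gave 2984 higher and 3011 lower, where the RPKM values gave 3534 and 2458. The median log2 fold change of the 9 genes was 0.11 at 2 h against naive, −0.09 at 24 h against naive and −0.40 at 24 h against 2 h, beside −0.04, 0.00 and 0.05 over all tested genes. Changes past a log2 fold change of 1 were rarer, at 2.56% of all genes at 2 h against naive, 4.9% at 24 h against naive and 7.11% at 24 h against 2 h. Clec2d at 2 h, Clec5a and Clec7a at 24 h, and Clec2d, Clec7a and Clec12a at 24 h against 2 h were beyond it.

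**Figure D1:**
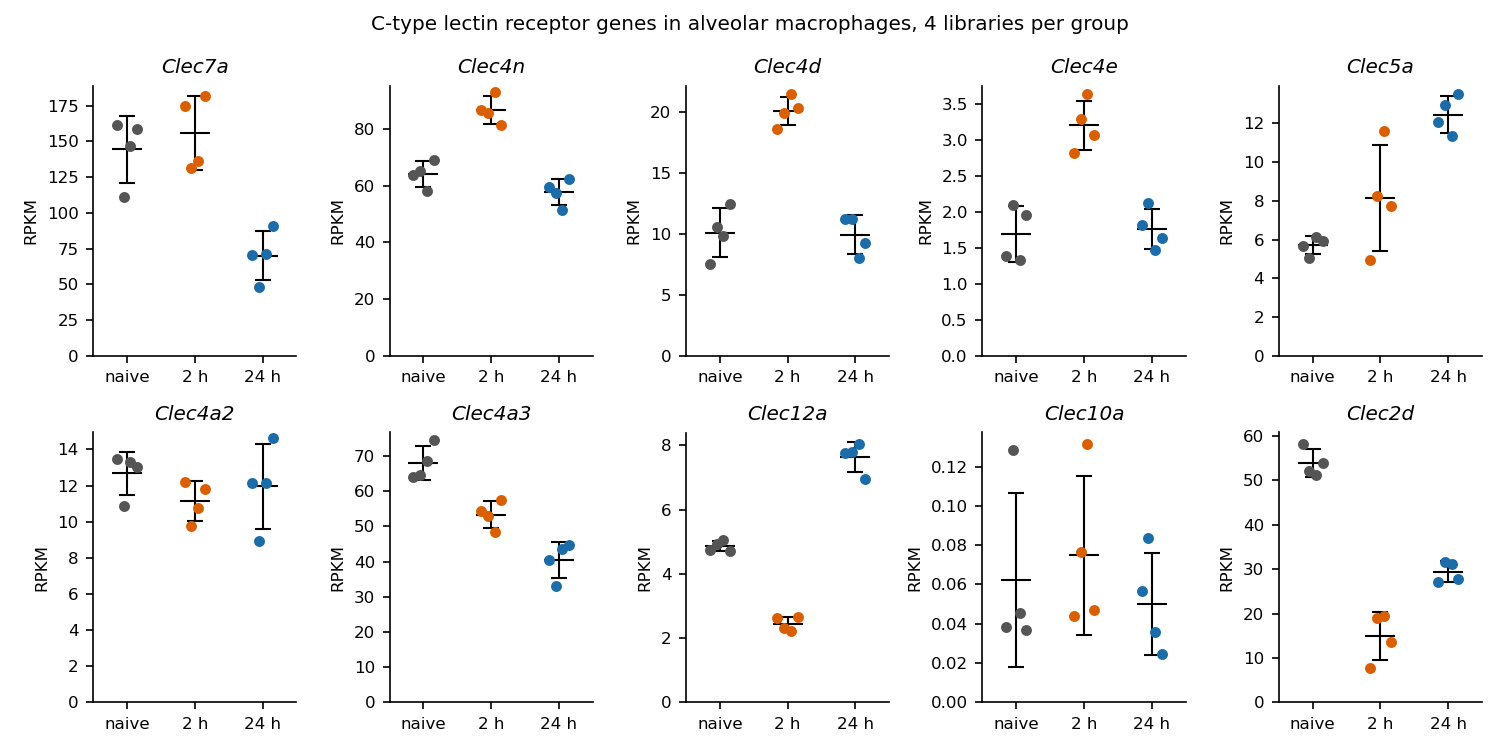
RPKM of the 10 C-type lectin receptor genes in each of the 12 libraries, by group (naive, 2 h and 24 h after reperfusion). Points are libraries, and the horizontal mark and bars are the mean ± SD (n = 4), with a separate axis from 0 for each gene. Clec4d and Clec4e peak at 2 h, Clec12a is lowest at 2 h and highest at 24 h, and Clec10a is at most 0.132 RPKM.

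The activating receptors that pair with FcRγ, Clec4n, Clec4d and Clec4e, were higher at 2 h than in naive and did not pass against naive at 24 h. Clec4d encodes MCL and Clec4e encodes Mincle, which form a complex that binds mycobacterial cord factor, and Mincle also binds a protein released by dying cells. Clec4d read 7.57, 10.6, 9.80 and 12.5 RPKM in naive replicates 1 to 4, 18.6, 19.9, 21.4 and 20.4 at 2 h and 11.2, 11.3, 8.01 and 9.26 at 24 h. All 4 libraries at 2 h lay above all the others, and the 24 h libraries lay within the naive range. Clec4d was 1.99-fold higher at 2 h than in naive (log2 fold change 0.94 ± 0.13, SE, limma adjusted p = 0.000321) and lower at 24 h than at 2 h (−0.96 ± 0.13, adjusted p = 8.61e-05). The log2 fold change at 24 h against naive was −0.01 (adjusted p = 0.938).

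Clec4e read 1.39, 2.09, 1.34 and 1.95 RPKM in naive, 2.82, 3.28, 3.63 and 3.07 at 2 h and 1.81, 2.13, 1.47 and 1.64 at 24 h. Again every 2 h library was above every naive and every 24 h library. The difference was 1.89-fold at 2 h against naive (log2 fold change 0.65 ± 0.11, adjusted p = 0.000966), and −0.61 on the log2 scale at 24 h against 2 h (adjusted p = 0.000625). The change at 24 h against naive was 0.04 (adjusted p = 0.777).

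Clec4n, which encodes dectin-2, a receptor for fungal mannans, read 63.8, 65.3, 58.0 and 69.2 RPKM in naive, 86.7, 85.7, 93.0 and 81.3 at 2 h and 59.5, 57.6, 51.4 and 62.5 at 24 h. The 2 h libraries stood above the rest, while the 24 h and naive libraries overlapped. The rise at 2 h was smaller than that of its neighbours, 1.35-fold (log2 fold change 0.43 ± 0.07, adjusted p = 0.000809), a ranking of sizes that was not tested. At 24 h Clec4n was lower than at 2 h (−0.58 ± 0.07, adjusted p = 3.1e-05). Against naive the log2 fold change at 24 h was −0.15 (adjusted p = 0.107). That comparison passed, as lower, with quantile normalisation (−0.20, adjusted p = 0.0333), with equal totals (−0.18, adjusted p = 0.0378) and without naive replicate 3 (−0.19, adjusted p = 0.0483).

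Clec7a and Clec5a, whose products also signal through Syk, differed from naive at 24 h and in opposite directions. Clec7a encodes dectin-1, the β-glucan receptor with its own ITAM-like motif. It read 162, 111, 147 and 159 RPKM in naive, 175, 131, 136 and 182 at 2 h and 70.6, 48.5, 71.1 and 90.5 at 24 h. The 24 h libraries were all below the others, and the 2 h and naive libraries overlapped. Clec7a was 2.06-fold lower at 24 h than in naive (log2 fold change −1.05 ± 0.18, adjusted p = 0.000647) and 2.22-fold lower than at 2 h (−1.16 ± 0.18, adjusted p = 0.000246). At 2 h against naive the log2 fold change was 0.11 ± 0.18 (adjusted p = 0.671). The annotation lists Clec7a as a polymorphic pseudogene.

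Clec5a encodes MDL-1, which signals through DAP12 and in humans is known as a receptor for dengue virus. It read 5.66, 5.07, 6.13 and 5.95 RPKM in naive, 4.95, 8.25, 11.6 and 7.75 at 2 h and 12.1, 12.9, 11.3 and 13.5 at 24 h. The 24 h libraries were all above the naive ones. The 2 h libraries were spread wide, replicate 1 lying below all naive libraries and replicate 3 within the 24 h range. Clec5a was 2.19-fold higher at 24 h than in naive (log2 fold change 1.01 ± 0.17, adjusted p = 0.000541) and higher than at 2 h (0.61 ± 0.17, adjusted p = 0.0109), the 24 h and 2 h groups overlapping. At 2 h against naive the log2 fold change was 0.40 ± 0.17 (adjusted p = 0.0878), and without 2 h replicate 1 it was 0.59 and passed (adjusted p = 0.00391).

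The inhibitory receptor genes Clec12a and Clec4a2 also took separate courses. Clec12a encodes MICL, an ITIM receptor that binds uric acid crystals and damps neutrophil and monocyte activation. It read 4.73, 4.93, 5.06 and 4.73 RPKM in naive, 2.62, 2.33, 2.23 and 2.65 at 2 h and 7.76, 7.80, 8.03 and 6.95 at 24 h. No library of 1 group reached the range of another, with 2 h lowest, naive between and 24 h highest. Clec12a was 1.98-fold lower at 2 h than in naive (log2 fold change −0.76 ± 0.06, adjusted p = 5.65e-06) and 1.57-fold higher at 24 h than in naive (0.56 ± 0.06, adjusted p = 1.28e-05). The difference between 24 h and 2 h was 3.11-fold (1.32 ± 0.06, adjusted p = 8.67e-09). Each of these calls was kept under all 23 other settings.

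Clec4a2 encodes DCIR, an ITIM receptor, and Clec4a3 is a close relative. Clec4a3 read 64.1, 64.5, 68.6 and 74.6 RPKM in naive, 54.5, 52.9, 48.4 and 57.5 at 2 h and 40.3, 33.2, 43.4 and 44.8 at 24 h. The 3 groups did not overlap and followed each other downward with time. Clec4a3 was 1.27-fold lower at 2 h than in naive (log2 fold change −0.34 ± 0.09, adjusted p = 0.0120), 1.68-fold lower at 24 h than in naive (−0.74 ± 0.09, adjusted p = 4.88e-05) and lower at 24 h than at 2 h (−0.40 ± 0.09, adjusted p = 0.00321). Clec4a2 averaged 12.7 ± 1.21 RPKM in naive, 11.1 ± 1.11 at 2 h and 12.0 ± 2.34 at 24 h (SD, n = 4 each), with overlapping groups. Its log2 fold changes were −0.17 ± 0.12 at 2 h against naive, −0.09 ± 0.12 at 24 h against naive and 0.08 ± 0.12 at 24 h against 2 h, with adjusted p of 0.301, 0.581 and 0.612. Parts of the Clec4a2 and Clec4a3 transcripts resemble that of Clec4b1, 96.3% over 436 bases for Clec4a2 and 82.3% over 436 bases for Clec4a3. Clec4a2 alone also overlaps another annotated gene on its own strand. Some reads of Clec4a2 and of Clec4a3 may therefore be shared with other genes.

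Clec2d had the largest fall of the 9 tested genes. It encodes Clr-b, a surface ligand that most blood cells carry and that holds back natural killer cells through the inhibitory receptor NKR-P1B, encoded by Klrb1b. Clec2d read 58.2, 52.1, 51.1 and 53.9 RPKM in naive, 7.78, 18.9, 19.5 and 13.5 at 2 h and 27.1, 31.6, 31.2 and 27.7 at 24 h. The 3 groups did not overlap, the 2 h libraries being lowest and the 24 h libraries between them and naive. Clec2d was 3.61-fold lower at 2 h than in naive (log2 fold change −1.86 ± 0.21, adjusted p = 8.02e-05), 1.83-fold lower at 24 h than in naive (−0.85 ± 0.21, adjusted p = 0.00626) and 1.97-fold higher at 24 h than at 2 h (1.01 ± 0.21, adjusted p = 0.00186). At 2 h the recovered reads were 97, 237, 203 and 119 a library, against 621, 501, 464 and 400 in naive. The relatives that its transcript resembles, Clec2f, Clec2g, Clec2i and Clec2j, were at or under 0.155 RPKM in every library.

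Klrb1b was the 1 gene of 7 on the list of Clec2d receptors and natural killer cell genes with enough expression to test. It was 0.48 on the log2 scale at 2 h against naive (adjusted p = 0.0364), higher, with 3.71 RPKM at 2 h and 2.36 RPKM in naive. At 24 h it was lower than in naive (−0.44, adjusted p = 0.0423), with overlapping groups, and lower than at 2 h (−0.93, adjusted p = 0.000522).

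Clec10a, which encodes the galactose-type lectin MGL1, was hardly detected. It read 0.0386, 0.128, 0.0453 and 0.0370 RPKM in naive, 0.0440, 0.0765, 0.132 and 0.0469 at 2 h and 0.0566, 0.0835, 0.0356 and 0.0248 at 24 h, from 2 to 10 reads a library, and was not tested. The groups overlapped at this depth. Its close copy Mgl2, which is 98.3% identical over 240 bases and may share reads with it, was not tested either, at 0.339 to 0.412 RPKM in naive, 0.0175 to 0.211 at 2 h and 0.0906 to 0.152 at 24 h.

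**Figure D2:**
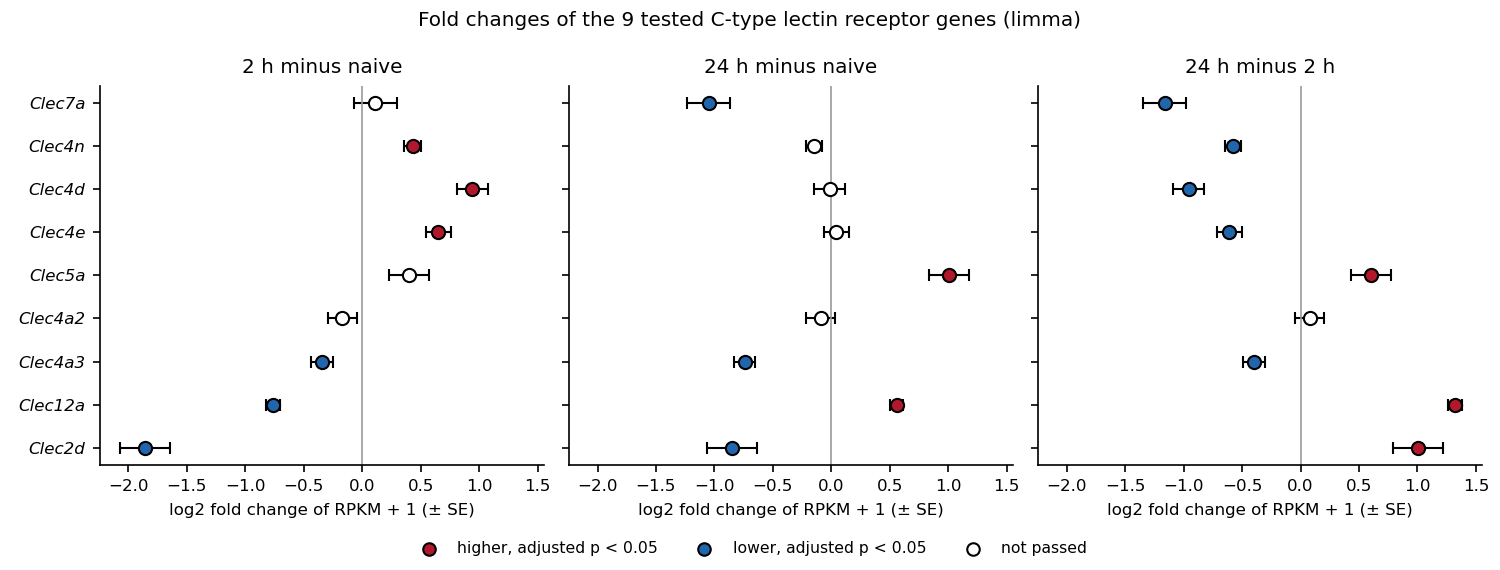
log2 fold changes of RPKM + 1 of the 9 tested genes at 2 h minus naive, 24 h minus naive and 24 h minus 2 h, with bars of ± 1 SE from limma over 12 libraries. Filled points have an adjusted p under 0.05 (red higher, blue lower) and open points did not pass. Clec4n, Clec4d and Clec4e lie right of 0 at 2 h and near 0 at 24 h, and Clec12a changes side.

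Levels of different genes can be set side by side only per length, and the length behind the deposited RPKM was often not that of the gene's exons. The lengths implied by the values ran from 0.836 times the exon union for Clec4d to 3.71 times for Clec4n. Rescaled to the exon union, Clec7a (288 ± 46.4 RPKM, SD, n = 4) and Clec4n (238 ± 17.1 RPKM) were highest in naive, with overlapping libraries. Clec4a3 followed at 126 ± 9.07, Clec2d at 53.8 ± 3.14 and Clec4a2 at 23.9 ± 2.28 RPKM, each without overlap to the gene before it. Clec5a (10.4 ± 0.849) and Clec4d (8.45 ± 1.70) overlapped, as did Clec12a (5.87 ± 0.196) and Clec4e (5.14 ± 1.17). Clec4d also overlapped Clec4e, and Clec10a came last at 0.19 ± 0.135 RPKM. At 2 h Clec4n (322 ± 17.9) and Clec7a (311 ± 52.0) were highest and overlapped, followed without overlap by Clec4a3 at 99.1 ± 7.07 RPKM. Clec4a2 (21.01 ± 2.09), Clec4d (16.8 ± 0.967), Clec2d (14.9 ± 5.46) and Clec5a (14.9 ± 4.99) came next, with Clec2d and Clec5a overlapping each of the others. Clec4e, at 9.74 ± 1.04 RPKM, also overlapped Clec2d and Clec5a, and Clec12a stood at 2.97 ± 0.252 RPKM. At 24 h Clec4n, at 214 ± 17.3 RPKM, stood above Clec7a, at 140 ± 34.2 RPKM, with no overlap between their libraries. Clec4a3 (75.1 ± 9.63) came after them, then Clec2d (29.4 ± 2.31), Clec5a (22.8 ± 1.74) and Clec4a2 (22.6 ± 4.42), of which Clec4a2 overlapped both others. Clec12a (9.23 ± 0.570) and Clec4d (8.31 ± 1.33) overlapped, and Clec4e (5.36 ± 0.856) lay below them.

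The 3 genes that were higher at 2 h than in naive lie side by side on chromosome 6. Clec4n (123229843 to 123247021, plus strand, GRCm38), Clec4d (123262111 to 123275265, plus strand) and Clec4e (123281789 to 123289870, minus strand) are consecutive genes within 60028 bases. Earlier in the same cluster, Clec4a3 (122952515 to 122969875) was lower at 2 h and Clec4a2 (123106428 to 123143999) did not pass. Of their nearest relatives there, Clec4a1 was lower at both times, with a log2 fold change of −0.55 at 2 h (adjusted p = 0.0283) and −0.82 at 24 h against naive (adjusted p = 0.00233). Clec4b1 was lower at 2 h (−0.40, adjusted p = 0.0155) and −0.18 at 24 h against naive (adjusted p = 0.202).

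Clec2d (129180615 to 129186534, plus strand), Clec12a (129342691 to 129365303, plus strand) and Clec7a (129461591 to 129472779, minus strand) lie within 292165 bases farther along the chromosome, and Clec5a (40574894 to 40585821, minus strand) lies apart. Between and beside Clec2d, Clec12a and Clec7a, the gene Cd69, a marker of lymphocyte activation, was 2.81-fold lower at 2 h and 2.33-fold lower at 24 h than in naive. Clec9a, a receptor for dead cells, was at 0.492 RPKM at 2 h, against 1.43 RPKM in naive, and was called lower. Olr1, a receptor for oxidised lipoprotein, was lower at 2 h (−0.58, adjusted p = 8.2e-05) and higher at 24 h than at 2 h (0.38, adjusted p = 0.000489). Clec12a was the 1 tested gene of this cluster called higher at 24 h against naive, and the other 7 were called lower. Of all tested genes 25.3% were called higher and 20.6% lower there. Among the 7, Clec9a (0.684 RPKM), Clec1a (0.752 RPKM) and Clec1b (1.94 RPKM) were low at 24 h.

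**Figure D3:**
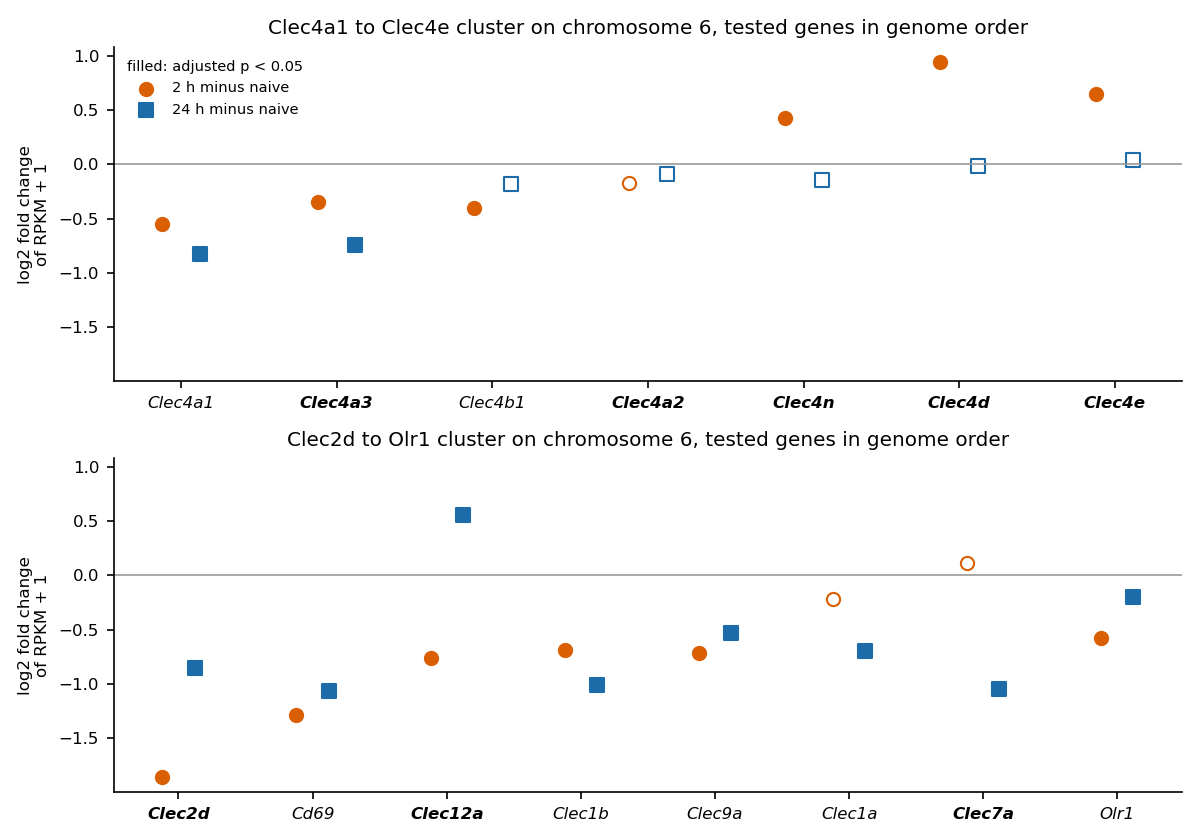
log2 fold changes of RPKM + 1 at 2 h minus naive (circles) and 24 h minus naive (squares) for the tested genes of the 2 lectin gene clusters on chromosome 6, in genome order and not to scale. Filled marks have an adjusted p under 0.05 by limma, and receptor genes under study are in bold. Clec5a and Clec10a lie outside both clusters and are not shown. Clec4n, Clec4d and Clec4e are the genes above 0 at 2 h in their cluster.

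Other genes listed as C-type lectin domain genes mostly lay below the filter on low values, and 16 of 62 were tested. Whether each listed product has that domain was not checked. The list includes Clec16a, which was among those called lower at 24 h against naive (−0.79) and at 24 h against 2 h (−0.82). At 2 h against naive 3 of the 16 were higher, 6 lower and 7 did not pass (median log2 fold change −0.19). By 24 h, against naive, none was higher, 10 were lower and 6 did not pass (median −0.36). Between 24 h and 2 h 3 were higher, 5 lower and 8 did not pass (median −0.22). Among all tested genes 14.7% were called higher and 22% lower at 2 h against naive. The shares were 25.3% and 20.6% at 24 h against naive, and 30.9% and 21.5% at 24 h against 2 h. Without naive replicate 2, 24 h replicate 1 or 24 h replicate 2 the 10 lower calls at 24 h came to as few as 6. Without 2 h replicate 2, 2 h replicate 4, 24 h replicate 3 or 24 h replicate 4, 1 gene was called higher there. At an unadjusted p under 0.05 limma had 1 higher at 24 h against naive, and voom on the recovered reads called 1 higher. Colec12, a scavenger receptor, was 2.49-fold higher at 2 h than in naive (adjusted p = 0.000885) and 3.86-fold lower at 24 h than at 2 h. Mrc1, the mannose receptor, averaged 282 RPKM at 24 h and 406 RPKM at 2 h, lower at 24 h (adjusted p = 0.000155). Clec1b, the podoplanin receptor, was 2.52-fold lower at 24 h than in naive.

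The genes of the adaptors and of Syk were lower than in naive at 1 or both times. Fcer1g, which carries the ITAM for Clec4n, Clec4d and Clec4e, read 218, 206, 217 and 225 RPKM in naive, 174, 161, 158 and 168 at 2 h and 214, 215, 207 and 195 at 24 h. The 2 h libraries were all below the others. Fcer1g was lower at 2 h than in naive (−0.39 ± 0.05, adjusted p = 0.000127), the direction opposite to the receptors it pairs with, and higher at 24 h than at 2 h (0.33 ± 0.05, adjusted p = 0.000116). Tyrobp, the adaptor of Clec5a, was lower at 2 h (−0.14, adjusted p = 0.0141) and at 24 h (−0.16, adjusted p = 0.00396) than in naive. Hcst, which encodes DAP10, was 1.51-fold lower at 24 h than in naive (adjusted p = 1.49e-05). Syk was lower at 24 h than in naive (−0.28, adjusted p = 0.000472), and its log2 fold change at 2 h was 0.00 (adjusted p = 0.969).

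The list of ITAM adaptors and kinases also holds Hcst, which is not an ITAM adaptor. Of its 22 tested genes, 4 were higher, 6 lower and 12 did not pass at 2 h against naive (median log2 fold change −0.01). Against naive, 2 were higher at 24 h, 9 lower and 11 did not pass (median −0.13), and at 24 h against 2 h the counts were 2, 9 and 11 (median −0.03). Among them Fgr, a Src family kinase, was 1.43-fold lower at 2 h than in naive and Prkcd, the kinase between Syk and Card9, was higher at 2 h (0.15, adjusted p = 0.0202) and 1.35-fold lower at 24 h than in naive. Leaving out naive replicate 2 took the higher calls at 2 h to 2, leaving out any naive or any 24 h library took those at 24 h against naive to at most 1, and leaving out 2 h replicate 4 took those at 24 h against 2 h to 4.

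Of 28 tested genes of the Card9, NF-κB and NFAT arm, 6 were higher, 5 lower and 17 did not pass at 2 h against naive (median 0.01). By 24 h, against naive, 1 was higher, 9 lower and 18 did not pass (median −0.04), and at 24 h against 2 h 3 were higher, 9 lower and 16 did not pass (median −0.08). The share called over all tested genes was 36.7%, 45.9% and 52.5% in these 3 comparisons. Card9 was lower at 2 h than in naive (−0.23, adjusted p = 0.0249), with overlapping groups. Malt1, the protease of the Card9 complex, read 9.08, 10.02, 9.80 and 9.48 RPKM in naive, 31.6, 28.3, 28.6 and 19.5 at 2 h and 7.67, 7.49, 8.55 and 9.89 at 24 h. Every 2 h library was above all the others, and Malt1 was 2.81-fold higher at 2 h than in naive (adjusted p = 1.96e-05). Traf6, an adaptor ligase, was 1.71-fold higher at 2 h. Nfkb2 was higher at 2 h (0.36, adjusted p = 0.0169) and lower at 24 h (−0.71, adjusted p = 0.000143) than in naive. Leaving out naive replicate 2 took the 6 higher calls at 2 h to 3, and leaving out naive replicate 1, naive replicate 3 or 2 h replicate 3 took the 5 lower calls to between 1 and 3. Without 24 h replicate 1 or 3 the higher calls at 24 h against 2 h came to 1, and without 24 h replicate 2 those at 24 h against naive came to 2.

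Of 13 tested genes of inhibitory signalling, 3 were higher, 4 lower and 6 did not pass at 2 h against naive (median 0.10). Against naive, 1 was higher at 24 h, 5 lower and 7 did not pass (median −0.11), and at 24 h against 2 h 2 were higher, 3 lower and 8 did not pass (median −0.03). Sla, an adaptor that lowers receptor signalling, was 1.94-fold higher at 2 h than in naive (adjusted p = 0.000175) and 1.91-fold lower at 24 h than at 2 h. Without naive replicate 1 or 3 the lower calls at 2 h came to 2. Without any of 24 h replicates 2 to 4 or naive replicates 1 to 3 those at 24 h against naive came to 2 or 3. Without naive replicate 3 or 4, 2 h replicate 1 or 2, or any 24 h library the higher calls at 24 h against 2 h came to 1.

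Cytokine and other response genes known to follow these receptors were counted as well. Of 11 tested of 20 listed, 6 were higher, 0 lower and 5 did not pass at 2 h against naive (median 0.62). Late, at 24 h against naive, 0 were higher, 3 lower and 8 did not pass (median −0.43), and at 24 h against 2 h 0 were higher, 9 lower and 2 did not pass (median −1.54). At an unadjusted p under 0.05 the 3 counts of 0 by limma were 0, 0 and 0, and voom gave 0 in each. Over all tested genes 14.7% were called higher and 22% lower at 2 h against naive. The shares were 25.3% and 20.6% at 24 h against naive, and 30.9% and 21.5% at 24 h against 2 h. Many other receptors drive these response genes. Ccl4, a chemokine, averaged 4.32 RPKM at 2 h and 0.984 RPKM in naive, and was called higher (adjusted p = 0.000186). Egr2, a transcription factor, averaged 11.5 RPKM in naive, 19.1 at 2 h and 5.42 at 24 h. Against naive it was called higher at 2 h (adjusted p = 0.0392), with overlapping groups, and lower at 24 h (adjusted p = 0.00287).

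**Figure D4:**
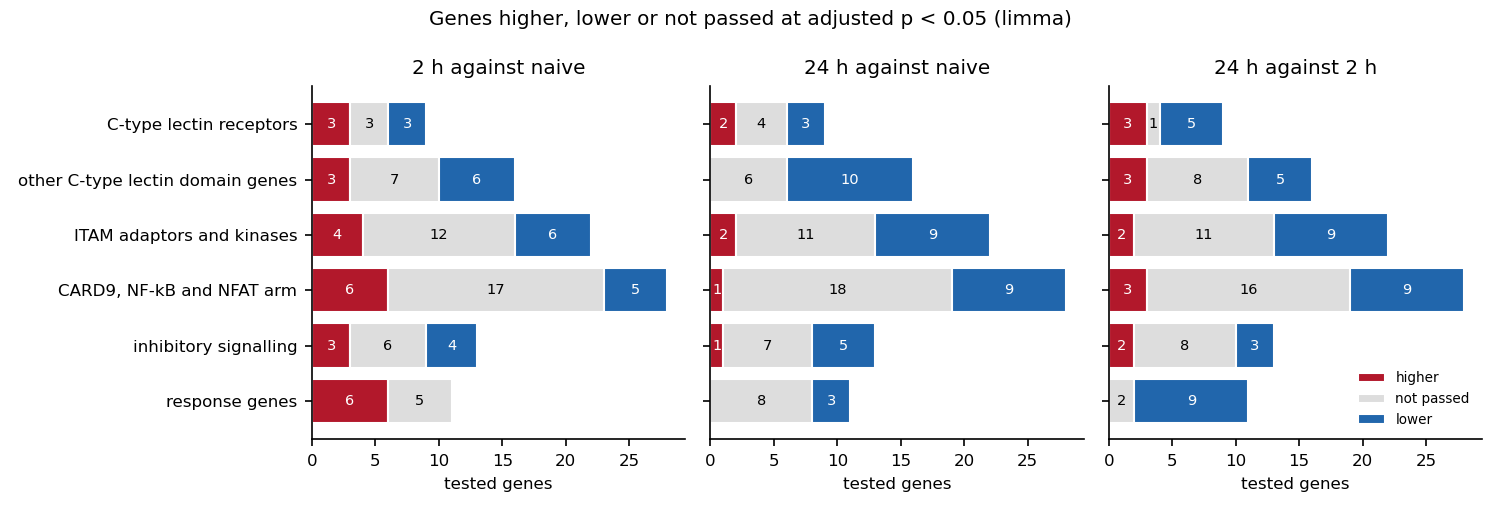
Number of tested genes higher (red), not passed (grey) and lower (blue) at an adjusted p under 0.05 by limma in the C-type lectin receptors and 5 related gene lists, for 2 h against naive, 24 h against naive and 24 h against 2 h. The response genes hold 6 higher and 0 lower at 2 h against naive, and 0 higher and 9 lower at 24 h against 2 h.

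Markers of cell types moved between the groups as well. Of the 24 alveolar macrophage markers, all tested, 3 were higher and 8 lower at 2 h, and 5 higher and 14 lower at 24 h, against naive. Over all tested genes 36.7% were called at 2 h and 45.9% at 24 h against naive. The summed level of the 24 markers was 15210 to 15510 RPKM in naive, 11510 to 12480 at 2 h and 12250 to 14250 at 24 h. The 12 monocyte markers summed to 133 to 183 RPKM in naive, 138 to 382 at 2 h and 71.2 to 88.1 at 24 h, with Ly6c2 at or under 0.17 RPKM. Cd14, at 113 RPKM in naive, 180.3 at 2 h and 43.0 at 24 h, made up most of that sum. Of the 6 tested monocyte markers, against naive, 1 (Nr4a1) was higher and 3 (Ccr2, Fn1 and Ace) lower at 2 h, and 4 were lower and 2 did not pass at 24 h. The 11 neutrophil markers summed to 26.4 to 35.0 RPKM in naive, 28.3 to 40.7 at 2 h and 41.8 to 48.1 at 24 h, with Ly6g at 0 in 11 of 12 libraries. The 4 tested neutrophil markers did not pass at 2 h against naive. At 24 h S100a8 was higher, at 29.8 RPKM against 10.2 RPKM in naive, Csf3r was lower, at 2.01 RPKM against 6.51 RPKM in naive, and the other 2 did not pass. Lymphocyte markers, 10 genes, were highest in naive at 9.45 to 16.1 RPKM, with 2.39 to 7.45 at 2 h and 1.76 to 2.71 at 24 h. The 8 interstitial macrophage markers summed to 81.2 to 91.6 RPKM in naive, 53.3 to 65.1 at 2 h and 51.9 to 63.8 at 24 h, C1qa averaging 3.49 RPKM in naive, 0.483 at 2 h and 0.549 at 24 h. The 8 dendritic cell markers summed to 4.97 to 5.99 RPKM in naive, 4.61 to 5.53 at 2 h and 4.09 to 8.35 at 24 h. The part of these shifts in the receptor differences was not tested.

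The groups also differed in genes whose expression varies between mouse strains. H2-Ea-ps, a class II gene that C57BL/6 mice do not express, read 0, 0.184, 0 and 0 RPKM in naive, 27.1, 23.4, 22.6 and 19.3 at 2 h and 1.70, 1.48, 5.20 and 5.11 at 24 h. Ifi202b, another gene with strain-dependent expression, read 0 RPKM in all 4 naive libraries, 1.71 to 2.20 at 2 h and 0 to 0.129 at 24 h. Klra3, chosen after its values were seen, lies on chromosome 6 (130323289 to 130337574, minus strand) and read 0.0512 to 0.0736 RPKM in naive, 1.86 to 4.03 at 2 h and 0 to 0.148 at 24 h. In each of these genes every 2 h library was above all naive and all 24 h libraries. H2-Ea-ps was also called higher at 24 h than in naive (limma adjusted p = 0.000143), without overlap, on 11 to 34 reads a library at 24 h and 0 or 1 in naive. Other genes of the Klra family, likewise chosen after their values were seen, took separate courses. Klra8 had 4 to 7 reads in each naive library, 0 or 1 at 2 h and 0 in all 4 libraries at 24 h. Klra10 had 0 or 1 reads in naive, 5 to 18 at 2 h and 0 at 24 h. Klra2 was lower than in naive at 2 h (−0.60, adjusted p = 0.00742) and at 24 h (−0.76, adjusted p = 0.00120). In none of the 3 comparisons can the time after reperfusion and a strain-linked difference between the groups be told apart, for the receptor genes as for all others.

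For the 4 receptor genes that passed with a log2 fold change of at least 1 in some comparison, the genes with the nearest profile over the 12 libraries were looked up among 9640. Likeness is the root mean square difference of log2(RPKM + 1) after centring, 0 meaning equal profiles. Nearest to Clec12a were Dele1 (0.111), Zw10 (0.128) and Rfwd3 (0.130), beside an SD of Clec12a itself of 0.545. Nearest to Clec7a were Ctsf (0.160), Fpr2 (0.170) and Lepr (0.172), beside an SD of 0.580. Nearest to Clec5a were Pspc1 (0.159), Srm (0.171) and Cnot9 (0.173), beside 0.475. Clec2d had no gene as near, Cdc42ep3 (0.358), Rsrp1 (0.384) and Kctd21 (0.391) coming first, beside 0.814.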

How the data were processed

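The authors deposited RPKM values, reads scaled to gene length and library total, for Ensembl genes in 12 libraries. The labels' protocols name the PicoPure kit for RNA isolation and polyadenylated RNA for sequencing. The submitters' processing notes name bcl2fastq, TopHat2, HTSeq and mm10, with versions, annotation and gene length not given in the sources used here. Names and positions came from GENCODE M21 (GRCm38, the assembly of mm10). Library totals were recovered from the steps of the RPKM values, with whole reads to within 0.02 of a read for 11417 of 11419 tested genes (99.98%). Of 9215 genes with several transcripts, the implied length equalled the summed transcript lengths in 49.9% and the exon union in 0.26%, so levels of different genes are compared only after rescaling. No pair of libraries of a group held equal counts to within sampling noise (chi-square per degree of freedom 2.64 to 21.8, 1 being noise alone).

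The test took every gene that reached 1 RPKM in 4 or more libraries, 11419 in all, 9 of the 10 receptor genes among them. limma 3.58.1 under R 4.3.3 modelled log2(RPKM + 1) in the 12 libraries together, with a trend of variance on level, and its tests were two-sided. Adjustment was by Benjamini and Hochberg across the tested genes, with a threshold of 0.05. Fold changes on this log2 scale understate the change of low genes, and ratios are of mean RPKM. Values of single libraries are given for replicates 1 to 4 in order. The steps were tested on simulated data. Similar transcripts were found with BLAST 2.17.0.

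The receptor genes, the gene lists and the rules below were chosen with earlier results of these data known. Of each list up to 4 tested genes with the smallest p in a comparison may be named, and Fcer1g, Tyrobp, Hcst, Syk, Card9, Clec4a1, Clec4b1 and Mgl2 in any case. The cell type markers Siglecf, Car4, Ly6c2 and Ly6g were named outside this rule. The 3 genes of nearest profile are named for each receptor gene that passed with a change of 1 or more on the log2 scale in either direction. Markers of epithelium, endothelium with stroma, and red cells with platelets were listed too, with 4, 0 and 1 tested genes. Epithelial markers summed to 66.3 to 71.1 RPKM in naive, 59.2 to 77.2 at 2 h and 33.0 to 40.2 at 24 h. Epcam made up much of that sum, at 42.5 RPKM in naive and 12.2 at 24 h. It was the 1 epithelial marker called lower at 24 h against naive, and the other 3 tested did not pass. The other lists summed to at most 4.35 RPKM in any library. The fits were repeated under 23 other settings.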

Additional observations from a re-analysis of the deposited data

Results flagged for a closer look

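In naive replicate 2 Clec10a read 0.128 RPKM, far from the other 3 naive libraries at 0.0370 to 0.0453 RPKM, and it was the 1 group of 30 checked with such a library, where chance gives about 1 in 20. The value rests on 9 reads.

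The change against naive at 24 h differed from that at 2 h in 8 of the 9 tested receptor genes by limma. The test is that of 24 h against 2 h given above, since both changes share the naive libraries. It called 52.5% of all tested genes. As 24 h minus 2 h on the log2 scale, the difference was positive for Clec12a (1.32), Clec2d (1.01) and Clec5a (0.61). It was negative for Clec7a (−1.16), Clec4d (−0.96), Clec4e (−0.61), Clec4n (−0.58) and Clec4a3 (−0.40).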

How the results depend on the processing

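Across 23 other settings, 12 of them leaving out a library, 614 of 618 values of single receptor genes stayed on the same side of the threshold. Of the 618, 0 lost their call, 0 reversed with a call and 4 passed in addition, those given for Clec5a and Clec4n. Among the 614, some values without a call changed sign. Clec4d at 24 h against naive, for example, ranged from −0.133 to 0.0847 on the log2 scale. The counts of receptor genes ranged from 2 to 4 higher and stayed at 3 lower at 2 h against naive, at 2 higher and 3 to 4 lower at 24 h against naive, and at 3 higher and 4 to 5 lower at 24 h against 2 h, a filter at 5 RPKM leaving Clec4e untested. Over all genes that filter called 2669 at 2 h against naive, where 4189 were called, and 3923 at 24 h against 2 h, where 5992 were called, with 6467 genes tested in place of 11419. Leaving out each library in turn gave 3502 to 4529, 4595 to 5460 and 5430 to 5981 calls in the 3 comparisons (2 h against naive, 24 h against naive, 24 h against 2 h), and voom on the recovered reads gave 4338, 5405 and 6295. With the replicate number as a block there were 4020, 5107 and 5877 calls, and the receptor counts were the same. Libraries of the same number did not deviate together, their correlations lying between −0.043 and 0.055. No pairing by number was seen, though 1 of small effect would not show in this check. The largest shift of the median of all genes by a scaling was −0.0605 on the log2 scale. Of 690 list counts under other settings 77 moved by over 1.5 times. Depth limits Clec10a.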
